A study of Homo sapiens with 6 samples.

Results

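The 10 genes described here carry the cyclic AMP (cAMP) signal: the adenylate cyclase genes ADCY3, ADCY6, ADCY7 and ADCY9, GNAS, the protein kinase A (PKA) genes PRKACA, PRKAR1A, PRKAR1B and PRKAR2A, and CREB1. They are 10 of 20050 protein-coding genes, and the peaks of N1-methylguanosine (m1G) RNA inside their gene spans were collected by position. This gave 30 of the 18431 peaks of a MeTDiff list and 9 of the 6264 summits of a MACS2 list. The genes were chosen by pathway with their folds in the MeTDiff list and their scores in the MACS2 list known, so those values are a description and no test was made on them.

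The RNA came from PANC-1, an established line of pancreatic ductal adenocarcinoma, and had been polyA+ selected and fragmented. Cells transfected with siRNA and depleted of the tRNA methyltransferase TRMT5 for 4 days (TRMT5 KD) gave 2 libraries precipitated with an anti-m1G antibody and 1 input library. Cells labelled WT control gave 2 precipitated libraries and 1 input library. The labels do not say whether libraries of a group came from separate cultures. Neither peak list marks a condition or a library, so each fold and score below is the authors' single value per peak, with no replicate error and no known depth. TRMT5 KD against control was not analysed here. Of the cell type markers, 4 of 4 epithelial genes had a MeTDiff peak, against 0 of 3 acinar, 0 of 3 endocrine, 1 of 3 leukocyte (CD68) and 0 of 2 endothelial genes. The share over all protein-coding genes was 36.1%. With groups this small and no expression values, these counts do not identify the cells.

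In the cAMP pathway a hormone receptor activates the G protein Gs, Gs switches on an adenylate cyclase in the plasma membrane, and the cyclase makes cAMP from ATP. cAMP binds the regulatory subunits of PKA and so frees the catalytic subunits, which phosphorylate many proteins, among them the transcription factor CREB. Cyclases of the family differ in their regulators: calcium inhibits ADCY6, for example, and forskolin stimulates ADCY9 little compared with the other membrane cyclases. Activating mutations of GNAS are known from cystic precursor lesions of the pancreas.

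A MeTDiff peak was found in 8 of the 10 genes and a MACS2 summit in 6, where 36.1% of all protein-coding genes had a peak on their strand and 18% a summit. Both kinds were present in 5 genes, ADCY3, ADCY6, ADCY7, GNAS and PRKAR1B, and PRKACA had neither. Over all protein-coding genes, 16.5% had both. A fold is the m1G precipitate over input. The median over the 30 peaks was 3.4, against 4.24 over the whole list, and 11 of the 30 lay above the list's median. A fold of 10 or more was reached by 3 of the 30 peaks, beside 12.7% of all peaks in the list. They were 1 each in ADCY3, ADCY6 and PRKAR1B, and that of PRKAR1B coincides with a peak on the other strand.

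**Figure D1:**
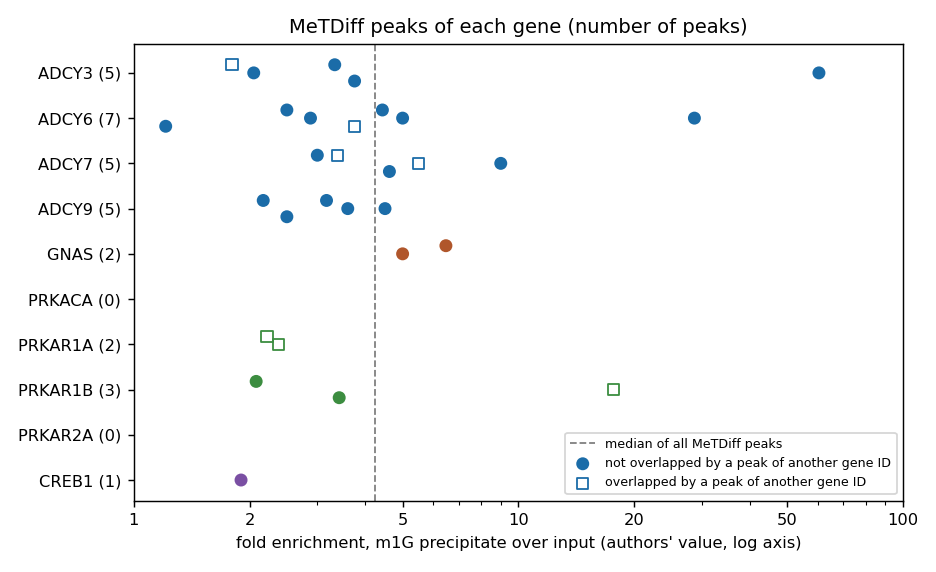
Fold enrichment of every MeTDiff peak (x axis, log scale) in each of the 10 genes (rows), with filled circles for peaks that no peak of another gene ID overlaps, open squares for peaks that one does, and the list's median of 4.24 as a dashed line. ADCY3, ADCY6 and PRKAR1B each have 1 peak far to the right of their others, and that of PRKAR1B is an open square.

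Among the adenylate cyclases, ADCY3 held the strongest peak of the family. ADCY3, a cyclase known from olfactory neurons and primary cilia, lies on the minus strand of chromosome 2 (ENSG00000138031, GRCh38 24819169 to 24920237). From the 5′ end to the 3′ end its 5 peaks had folds of 60.5, 3.33, 3.75, 2.05 and 1.8. The first stood apart, at 16.1 times the second largest. In the 4055 protein-coding genes with at least 2 peaks the median of that ratio was 1.6, and 9 genes had a larger one. In the whole list 6 peaks had a larger fold.

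The 60.5-fold peak covered 100 bases (24919740 to 24919839, false discovery rate (FDR) 0.000229). Its middle lay 447 bases from the outer 5′ end of the gene and 205 bases upstream of a second transcript start that RefSeq places at 24919585. Of its bases, 96 fall in the promoter window of that second start (RefSeq, GRCh38.p14), with 43.8% G and 83.3% G+C. Among 459 MeTDiff peaks with 50 or more bases in a promoter window of their gene, the median was 42% G and 71.7% G+C. G content at ADCY3 was thus close to that of other such peaks, and its G+C content was higher than in 94.3% of them. The 30 bases at the middle of the peak (chr2:24919775-24919804, minus strand) are shown because they sit under the strongest enrichment of the pathway. Capitals mark the guanosines, the base that can carry m1G, and the files do not say which of them was methylated.
ADCY3: ccccGaGGcGctGccGGGGcGGcGcGGctc

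The other 4 ADCY3 peaks lay further downstream. The second joined 3 blocks, 199 bases of transcript over 45686 bases of genome, as a spliced RNA would. Its first block, of 87 bases (24918313 to 24918399), was still near the 5′ end, and its middle was 42.2 kb from that end. The next 2, at 80.3 and 85.4 kb, were spliced too, with 4 and 2 blocks. The last, 398 bases from the 3′ end, overlapped a 2.0-fold peak of another gene ID on the plus strand over all of its 100 bases, inside the span of CENPO. MACS2 placed a single summit in ADCY3, at 24919916, with a score of 73.1. A MACS2 score is a p-value or q-value on the −log10 scale, and 73.1 ranked 48 of the 6264 summits. The summit lay 77 bases upstream of the 60.5-fold peak, outside it. A further peak in the ADCY3 span, of 7.5-fold at 24825899 to 24826139, belonged to an ID on the plus strand (ENSG00000271936) and was not counted for ADCY3.

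ADCY6, a calcium-inhibited cyclase, had 7 peaks in a span of 23.8 kb (ENSG00000174233, chromosome 12, 48766194 to 48789974, minus strand). Of these, 5 also lie in the span of SPMIP11, and without them ADCY6 had 2 peaks, against 5 in ADCY9 and 4 each in ADCY3 and ADCY7 counted the same way. From the 5′ end the folds were 28.7, 2.5, 1.21, 2.88, 4.43, 3.75 and 5.0. As in ADCY3, the peak nearest the 5′ end was far above the rest, here at 5.74 times the second largest, a ratio exceeded in 145 genes. It covered 250 bases (48783166 to 48783415, FDR 0.00166), 6.68 kb from the 5′ end of the span, and 158 peaks of the list had a larger fold. The MACS2 summit of ADCY6, at 48783317 with a score of 20.8, lay inside it. The last 4 peaks all fell within 1.57 kb of the 3′ end and shared one p-value of 0.0028, so their FDR of 0.00525 does not rank them. One of these, of 3.75-fold, overlapped by 92 bases a 4.29-fold peak on the plus strand, also in the SPMIP11 span, and since the sources used here do not say whether the libraries kept strand, the reads of the pair cannot be told apart.

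ADCY7, a cyclase prominent in blood cells, showed no such gap between its peaks (ENSG00000121281, chromosome 16, 50244699 to 50318135, plus strand). The folds of its 5 peaks were 9.0, 3.0, 4.62, 5.5 and 3.38 from the 5′ end, and the largest was 1.64 times the second. The 9.0-fold peak (50288003 to 50288202, FDR 0.00355) lay 43.4 kb into the span and 21552 bases past the listed ADCY7 start at 50266551. Of all peaks, 84.2% had a lower fold. The only summit of ADCY7, at 50288001 with a score of 24.8, missed that peak by 2 bases. Its 2 peaks nearest the 3′ end overlapped peaks of 2.75-fold and 2.7-fold on the minus strand that carry a single other ID, and the second of those reaches into the span of BRD7. FDR and p-value did not run in parallel here: the same deposited p-value, 0.0017, stood beside an FDR of 0.00355 for the largest peak and of 0.0245 for the smallest.

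ADCY9 was the flattest of these cyclases (ENSG00000162104, chromosome 16, 3953387 to 4116442, minus strand). Its 5 peaks had folds of 4.5, 3.17, 2.5, 3.6 and 2.17 and no summit. They formed groups at either end of the gene: 3 lay within 2.45 kb of the 5′ end, and 2 between 12.6 and 13.3 kb from the 3′ end, and the middles of the peaks nearest to each other across the gene were 147 kb apart. No peak of another ID overlapped them. The 4.5-fold peak had the weakest FDR of the gene, 0.017.

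Set beside its paralogs, ADCY3 had the larger strongest peak, while its other peaks were in the range of theirs. The largest fold of ADCY3 was 2.11 times that of ADCY6, 6.72 times that of ADCY7 and 13.4 times that of ADCY9. The remaining 18 peaks of these cyclases all lay between 1.21 and 5.5, and their medians were 2.69 in ADCY3, 3.31 in ADCY6, 4.0 in ADCY7 and 2.83 in ADCY9. These differences have no replicate error and were not tested. Of the other 6 cyclase genes, ADCY1 had 1 peak of 2.75-fold, with an FDR above 0.01, and no summit. ADCY2, ADCY4, ADCY5, ADCY8 and the soluble cyclase gene ADCY10 had neither a peak nor a summit. The files hold no expression values, so an untranscribed gene and a transcript without m1G cannot be told apart.

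GNAS, which encodes the stimulatory G protein subunit Gsα and several further products from alternative first exons, had the most summits of the 10 genes (ENSG00000087460, chromosome 20, 58839748 to 58911192, plus strand). Its 2 peaks had folds of 5.0 and 6.48, and its 3 summits had scores of 7.36, 30.8 and 28.7. The first of them lay 51.8 kb into the span of 71.4 kb, and all were downstream of each of the 6 GNAS transcript starts that the promoter table lists, the last of them at 58889180. The 5.0-fold peak (58891504 to 58891703) lay 2424 bases past that start, contained the weakest summit, and had the smallest FDR of the 30 peaks, 7.08e-07. The 6.48-fold peak joined blocks of 72 and 29 bases over 1692 bases, and both stronger summits missed it. The summit of score 30.8 lay 215 bases upstream, and that of score 28.7 lay between the blocks, 90 bases from one of them.

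Of 8 PKA subunit genes 2 had a MeTDiff peak (25%, against 36.1% of all protein-coding genes) and 3 a summit (37.5%, against 18%). The 2 shares thus lay on opposite sides of those of all genes, and the group is too small to read a difference from either. PRKACA, the main catalytic subunit gene (chromosome 19, 14091688 to 14117762, minus strand), had no peak and no summit, and PRKACB, PRKACG and PRKX, which encode other catalytic subunits, had none either. The nearest peak to PRKACA lay 1686 bases beyond its 3′ end, in the neighbouring gene SAMD1, with 55.5-fold enrichment and a summit score of 43.4 close by. Among peaks wholly outside a span, the nearest to any of the 10 genes was a 6.0-fold peak of DNAAF5, 811 bases from PRKAR1B. Inside the spans, 8 peaks on the opposite strand were not counted.

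PRKAR1B, the gene of the neuronally abundant regulatory subunit RIβ, had the third-largest fold of the 10 genes (ENSG00000188191, chromosome 7, 549197 to 728934, minus strand). Its peaks had folds of 17.7, 2.08 and 3.42 from the 5′ end, and its summits scores of 27.1 and 32.0. The 17.7-fold peak (726771 to 726871, FDR 0.00138) lay 460 bases downstream of a PRKAR1B start at 727281. Over its whole 101 bases it coincided with a 17.5-fold peak on the plus strand, under the ID ENSG00000164818, where the span of DNAAF5 overlaps that of PRKAR1B head to head. Which gene the precipitated RNA came from cannot be told apart with these lists. Without such overlapped peaks the largest fold of PRKAR1B was 3.42. The summit of score 27.1 lay 38 bases outside the 17.7-fold peak, and that of score 32.0, at 551578, lay 1533 bases from any PRKAR1B peak.

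**Figure D2:**
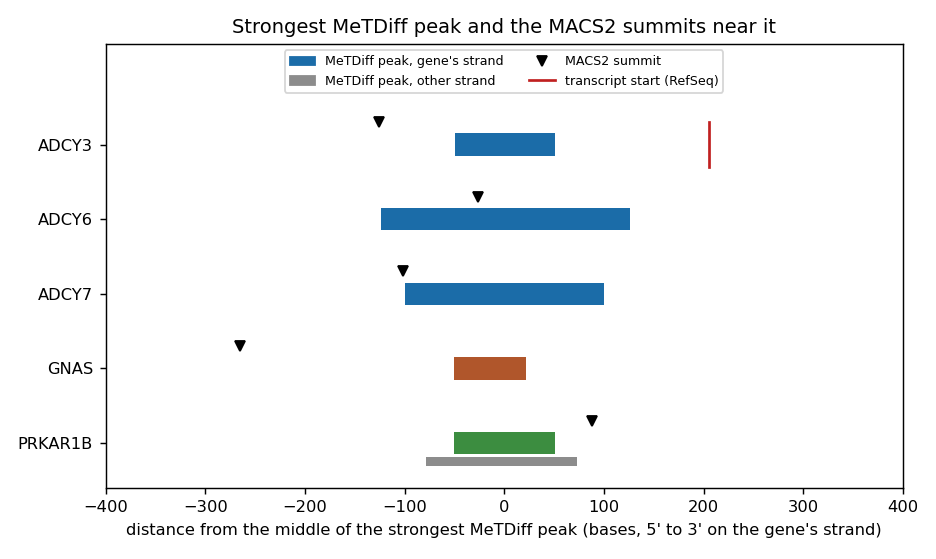
The MeTDiff peak of largest fold in the 5 genes that also had a summit, drawn to scale in bases from its middle in the direction of transcription, with MACS2 summits as triangles, a peak on the other strand in grey and a RefSeq transcript start in red. The summit lies inside the peak in ADCY6, misses it by 2 bases in ADCY7, by 38 in PRKAR1B and by 77 in ADCY3, and a grey bar underlies the PRKAR1B peak.

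PRKAR1A, the gene of the widely expressed subunit RIα, whose loss causes Carney complex, had weak enrichment at a single place (chromosome 17, 68413623 to 68551316, plus strand). A 2.38-fold and a 2.22-fold peak, under the IDs ENSG00000267009 and ENSG00000108946, shared 89 bases of the same strand and may hold the same reads. They lay 102 kb into the span, yet the middle of each was within 66 bases of a transcript start at 68515394. Both counted for PRKAR1A by position, and the list does not name the gene of either ID. The first peak, under ENSG00000267009, begins with the ATG at 68515400 that opens the RIα reading frame. The second, under ENSG00000108946, begins 10 bases further downstream. The promoter window holds 44 bases of the first peak (chr17:68515400-68515443, plus strand, RefSeq GRCh38.p14). They are shown to place that peak on the start of the coding sequence. Capitals again mark guanosines, and they make up 36.4% of the stretch.
PRKAR1A: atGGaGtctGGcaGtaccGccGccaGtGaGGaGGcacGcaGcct

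PRKAR2A and PRKAR2B, the genes of the type II regulatory subunits, had 1 summit each and no MeTDiff peak. That of PRKAR2A (chromosome 3, 48744591 to 48847874, minus strand) had a score of 7.29, below the list's median of 16.4, and lay 52 bases inside the 5′ end of the span. That of PRKAR2B had a score of 6.24. Both are far below the scores of 27.1 and 32.0 in PRKAR1B.

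CREB1, the transcription factor at the end of the pathway, had 1 peak and no summit (ENSG00000118260, chromosome 2, 207529962 to 207605988, plus strand). Its fold of 1.9 was below the largest fold of each of the other 7 genes with a peak, with 8.04% of all peaks lower still, while its FDR of 4.68e-06 was the second smallest, after GNAS. The peak lay 125 bases from the 5′ end and was made of 98 bases there and 2 bases more across a gap, 4567 bases in extent. The next smallest was the 0.000229 of the 60.5-fold peak of ADCY3.

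Along the 10 genes, 3 peaks (10%) lay within 500 bases of the 5′ end of the span, in ADCY3, ADCY9 and CREB1, and 1 (3.33%) within 500 bases of the 3′ end, in ADCY3. Over the 16481 peaks inside the span of 1 protein-coding gene of their strand, the shares were 16.3% and 6.81%. Both counts depended on the distance allowed. At the 5′ end the count was 4 within 1000 bases (13.3%, against 20.9% over the list). In the first 10% of the span it was 6 (20%, against 20.9%). At the 3′ end the count was 5 within 1000 bases (16.7%, against 13.6% over the list). In the last 10% of the span it was 11 (36.7%, against 25.2%). The outer end of a span is a poor guide where a gene has several starts. With every start in the promoter table allowed beside the outer end, 6 peaks were within 500 bases of either. Those added were the overlapping pair of PRKAR1A and the 17.7-fold peak of PRKAR1B, which coincides with a peak on the other strand. ADCY9 has no start in that table and was counted by its outer end. The share over the list is not given for this setting.

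**Figure D3:**
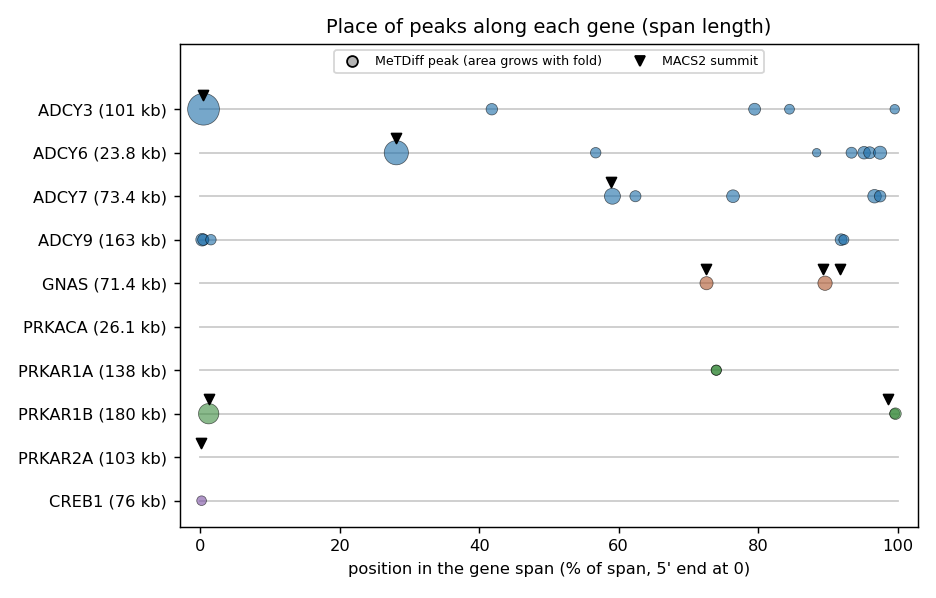
Position of MeTDiff peaks (circles, area growing with fold) and MACS2 summits (triangles) along each gene span (x axis, percent of the span from the 5′ end, at the middle base of each peak's joined blocks), with span lengths beside the names. The largest circles of ADCY3 and PRKAR1B sit at the 5′ end, that of ADCY6 at 28.1% of the span, and the peaks of GNAS at 72.6% and 89.6%.

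The peak callers often marked the same part of a gene without overlapping. A MeTDiff peak of the gene contained 2 of the 9 summits, 1 each in ADCY6 and GNAS. Of the 7 summits in the span of a single gene that has a peak, that is 28.6%, against 37.6% of 5169 such summits across the list. With summits widened by 50 bases on each side the count was 4, adding ADCY7 and PRKAR1B, and with 100 bases it was 6, adding ADCY3 and a second summit of GNAS. Across the list, 81% of the 5169 summits in the span of a single gene that has a peak lay within 100 bases of such a peak. The 9 summits here also include 1 of PRKAR1B in 2 coding spans and that of PRKAR2A, a gene without a peak. The 6 of 9 therefore has a different base from the 81%. Among the 5 genes with both kinds, ADCY3 came first by largest fold and by highest score. The order below it differed: by fold it ran ADCY6, PRKAR1B, ADCY7 and GNAS, and by score PRKAR1B, GNAS, ADCY7 and ADCY6. With peaks in 1 coding span only, the 3.42-fold of PRKAR1B put it last by fold.

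Some peaks were overlapped by a peak of another gene ID. A peak of another ID covered at least part of 7 of the 30 peaks (23.3%), against 12.1% over the list, and 5 of the 7 partners lay on the opposite strand. The other 2 were the PRKAR1A pair, which overlap each other and so count 1 place 2 times. The 60.5-fold peak of ADCY3 and the 28.7-fold peak of ADCY6 were not among the 7.

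The wider cAMP pathway was described with a list of 86 genes in 9 groups, which includes the 10 genes above. A MeTDiff peak was found in 38 of them (44.2%) and a summit in 14 (16.3%). Without the 10 genes the counts were 30 of 76 (39.5%) and 8 of 76 (10.5%), beside the 36.1% and 18% of all protein-coding genes. The largest fold in those 76 genes was 15.5, lower than in ADCY3 and ADCY6. It was also below the 17.7 of PRKAR1B, but above the 3.42 left there without the peak shared with DNAAF5.

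By role, 5 of 13 receptor genes that couple to Gs had a peak (38.5%) and none a summit. Over all protein-coding genes the shares were 36.1% and 18%. The orphan ciliary receptor gene GPR161 led the receptors with 8.37-fold. The beta-1 adrenergic receptor gene ADRB1 had 7.5-fold and the prostaglandin receptor gene PTGER4 6.71-fold. Of 7 G protein subunit genes 3 had a peak (42.9%). GNAI2, whose product inhibits cyclases, had a largest fold of 9.5 and a score of 67.0, above GNAS on both counts, and GNAI1 had 3.25-fold. Phosphodiesterases, which break down cAMP, had a peak in 7 of 16 genes (43.8%). These shares are near that of all genes and were not tested. PDE4C reached 15.5-fold, PDE4A 8.83-fold and PDE7A 5.5-fold. The peaks of PDE4A and PDE7A had an FDR above 0.01.

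Downstream of cAMP, 8 of 16 genes of A-kinase anchoring proteins, which hold PKA at its targets, had a peak (50%). The share over all protein-coding genes was 36.1%. AKAP17A reached 13.0-fold, AKAP8L 10.2-fold and AKAP13 9.5-fold. The PKA inhibitor gene PKIG had 10.2-fold enrichment, and PKIA and PKIB had no peak. Of the CREB family and its coactivators, 5 of 8 had a peak (62.5%), in a small group and untested. The CREB coactivator genes CRTC1, CRTC2 and CRTC3 had 10.3-fold, 5.55-fold and 4.83-fold, all above the 1.9-fold of CREB1, and CRTC1 held 3 summits. Among other cAMP effectors POPDC3, of a family of cAMP-binding membrane proteins, had 10.7-fold and RAPGEF3, a cAMP-activated exchange factor for RAP1, 4.17-fold.

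**Figure D4:**
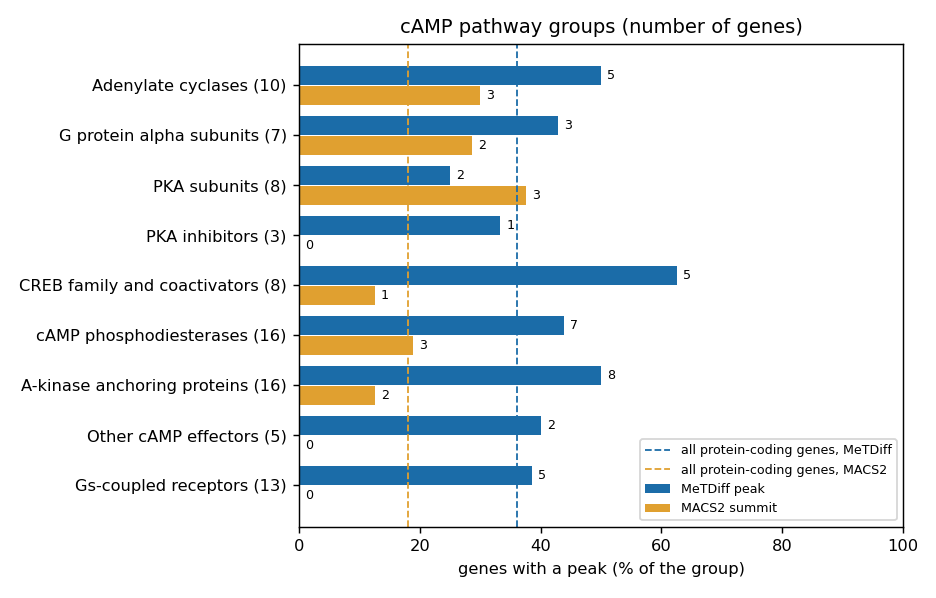
Share of genes with a MeTDiff peak (blue) and with a MACS2 summit (orange) in the 9 groups of the cAMP pathway list (x axis, percent of the group), with the number of genes at each bar and the share over all protein-coding genes as dashed lines. The groups hold 3 to 16 genes, so 1 gene moves a share by several percentage points.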

How the data were processed

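In all, 2 peak lists were deposited for the series. The authors' MeTDiff list gives each peak's blocks, strand and gene ID, a p-value, the log10 of its FDR, and a fold (the ratio of precipitate to input), as read from column order and values. The deposited MACS2 list gives 1 bp summits with a −log10 p-value or q-value. Per the submitters' processing notes, tools included STAR 2.7.1 and MACS2 2.2.5, on GRCh38. The sources used here do not give settings, strandedness or pooling.

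Gene spans and promoter windows came from RefSeq (GRCh38.p14). A MeTDiff row counted for a gene if wholly inside its span on its strand, and a summit if inside the span. Strand came from the promoter table, which holds 8 of the 10 genes, and for ADCY6 and ADCY9 from the gene ID with most rows. Over the gene table, 3026 coding genes had no strand by either route and counted as without a peak. The middle of a peak is the middle base of its joined blocks. The members and lists were chosen with earlier results of these data known. Named beyond the 10 genes were all cyclase and PKA subunit genes and, per further group, the 3 of largest fold. Counting was checked on simulated spans. Python 3.11.15 and pandas 2.3.3 were used.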

Additional observations from a re-analysis of the deposited data

How the results depend on the processing

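Of 43 alternative values, 34 stayed within 1.5 times of the value reported (counts) or equal to it (folds), and 9 moved. Summits inside a MeTDiff peak numbered 2, against 4 with 50 bases of widening and 6 with 100. Peaks near the 5′ end numbered 3, against 6 in the first 10% of the span and 6 with every listed start allowed beside the outer end. Peaks near the 3′ end numbered 1, against 5 within 1000 bases and 11 in the last 10%. The largest fold of ADCY9 was 3.6 with an FDR of 0.01 or less, and that of PRKAR1B 3.42 with peaks in 1 coding span only and also without peaks overlapped by another ID, a setting that left PRKAR1A with none. The settings of 100 bases, listed starts, overlapped peaks and either strand were chosen after seeing the data. No paired analysis was possible because the lists carry no libraries. Depth is unknown, so a missing peak may reflect few reads.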

Other observations

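Among the 30 peaks, 13 had the same p-value as another peak of their gene, and 11 had a fold that is a multiple of 0.25 within 0.005, the 60.5 of ADCY3 among them. Shares over the list are not given for these counts. Across the list 234 peaks had the p of 0.0017 seen in ADCY7, and their FDRs ran from 0.00347 to 0.0251, with a median of 0.00355. Of these, 26 (11.1%) were over 0.01, close to the 10.9% of all peaks.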
